A study of Mus musculus with 24 samples.

Results

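The BCL2 family was examined in the ventricles of mice lacking the executioner caspases and of wild type mice, at birth and at 1 month. The genes taken as members were Bcl2, Bcl2l1, Mcl1, Bax, Bak1, Bid, Bcl2l11, Bbc3, Bnip3 and Bnip3l. They were found by symbol among the array rows that the platform table assigns to a single gene, and the row with the highest mean signal over the 24 arrays stood for each gene. Of these 10 genes 9 were found among 18819 genes tested, and Bax was not analysed here. RNA of ventricle tissue was hybridised to 24 expression arrays in 4 groups of 6 mice: young KO, young WT, newborn KO and newborn WT. Young mice were 30 days old and newborn mice 1 to 2 days old, all of C57BL/6J background (C57/Bl6 in the labels). KO mice lacked one executioner caspase in all tissues and another in the heart cells that express Cre under promoter and enhancer sequences of Nkx2.5, so that other cells of the ventricle, fibroblasts among them, kept the floxed allele of the second. WT mice carried normal caspase genes. Both sexes were used in about equal number, but the labels do not give the sex of each mouse. The deleted genes are not reported here, so the genotype labels were not checked against them.

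BCL2 proteins decide whether the outer membrane of mitochondria is opened during intrinsic apoptosis. Guardians such as BCL2, BCL-XL (Bcl2l1) and MCL1 bind and hold back the pore formers BAX and BAK (Bak1). BH3-only proteins such as BID, BIM (Bcl2l11) and PUMA (Bbc3) relay stress signals by occupying the guardians or by acting on the pore formers. Once the membrane is open, cytochrome c is released and executioner caspases are activated. BNIP3 and NIX (Bnip3l) are BH3-like outer membrane proteins best known as receptors that hand mitochondria to the autophagy machinery, and both are known as hypoxia-responsive genes. In cardiac muscle MCL1 is known to be required for mitochondrial integrity and myocyte survival.

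The windows upstream of the 2 genes whose levels separated the ages most clearly, Bnip3 and Bcl2l11, are shown because each holds a motif of a pathway known to control it. RefSeq windows run from 250 bases before the transcript start to 50 after it (build GRCm38.p6), and 8 of the 9 measured members had at least 1. Bnip3 lies on the minus strand (chr7:138909457-138909756), with the hypoxia response core in capitals, ACGTG or GCGTG on either strand. Bcl2l11 lies on the plus strand (chr2:128125788-128126087, the first of 2 windows), with the FOXO match GTAAACA in capitals.
Bnip3: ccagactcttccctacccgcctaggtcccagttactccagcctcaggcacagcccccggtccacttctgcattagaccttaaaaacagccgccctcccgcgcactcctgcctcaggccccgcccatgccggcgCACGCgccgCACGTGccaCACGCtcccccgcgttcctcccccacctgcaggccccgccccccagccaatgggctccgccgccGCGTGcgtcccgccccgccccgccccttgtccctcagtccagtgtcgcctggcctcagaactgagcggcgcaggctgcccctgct
Bcl2l11: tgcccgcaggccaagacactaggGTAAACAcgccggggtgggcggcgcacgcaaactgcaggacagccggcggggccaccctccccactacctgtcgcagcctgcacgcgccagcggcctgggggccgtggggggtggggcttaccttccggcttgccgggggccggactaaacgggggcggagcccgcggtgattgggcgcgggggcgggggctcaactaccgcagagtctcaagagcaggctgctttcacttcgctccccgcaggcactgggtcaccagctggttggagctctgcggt
The Bnip3 window held 5 matches to the hypoxia core, at 117, 108, 107, 99 and 35 bases before the start, and the pair at 108 and 107 were the 2 strand readings of 1 CACGTG. A core match was present in 43.8% of all 32851 windows and 5 or more in 1.66%. Among the measured members with a window, 4 of 8 had a core match, namely Bcl2l1, Bcl2l11, Bbc3 and Bnip3. The Bcl2l11 window held GTAAACA 227 bases before the start, and 3.65% of windows held that motif on either strand. The FOXO match in this window overlapped 1 of its 3 hypoxia cores. The other Bcl2l11 window held no FOXO match, and a window of Bbc3 held one 167 bases before the start. These matches describe the letters of the windows, and no binding was measured.

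The values are log2 signals after RMA normalisation by the authors, so a difference of 1 is a doubling, and levels of different genes cannot be set against each other because each probe set has its own affinity. Mean signals of the members lay between the 40.8th percentile of genes for Bid and the 99th for Bnip3l. In a limma fit of all 24 arrays a gene was called when its adjusted p was below 0.05 after Benjamini-Hochberg correction over all genes. Medians of the arrays lay between 4.24 and 4.5. The mean of the 8 ventricular cardiomyocyte markers lay between 12.49 and 12.57 in young KO and between 12.55 and 12.65 in young WT. In newborn mice it was lower, between 12.21 and 12.38 in KO and between 12.29 and 12.43 in WT. The ages thus did not overlap. Between the young genotypes 1 of the 8 was called, lower in KO. The 7 atrial markers varied much more, with array means between 6.39 and 10.64 in young KO, 5.57 and 9.62 in young WT, 9.06 and 10.20 in newborn KO, and 8.24 and 10.08 in newborn WT. In tissue RNA, fewer cells of a type and less RNA per cell cannot be told apart.

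**Figure D1:**
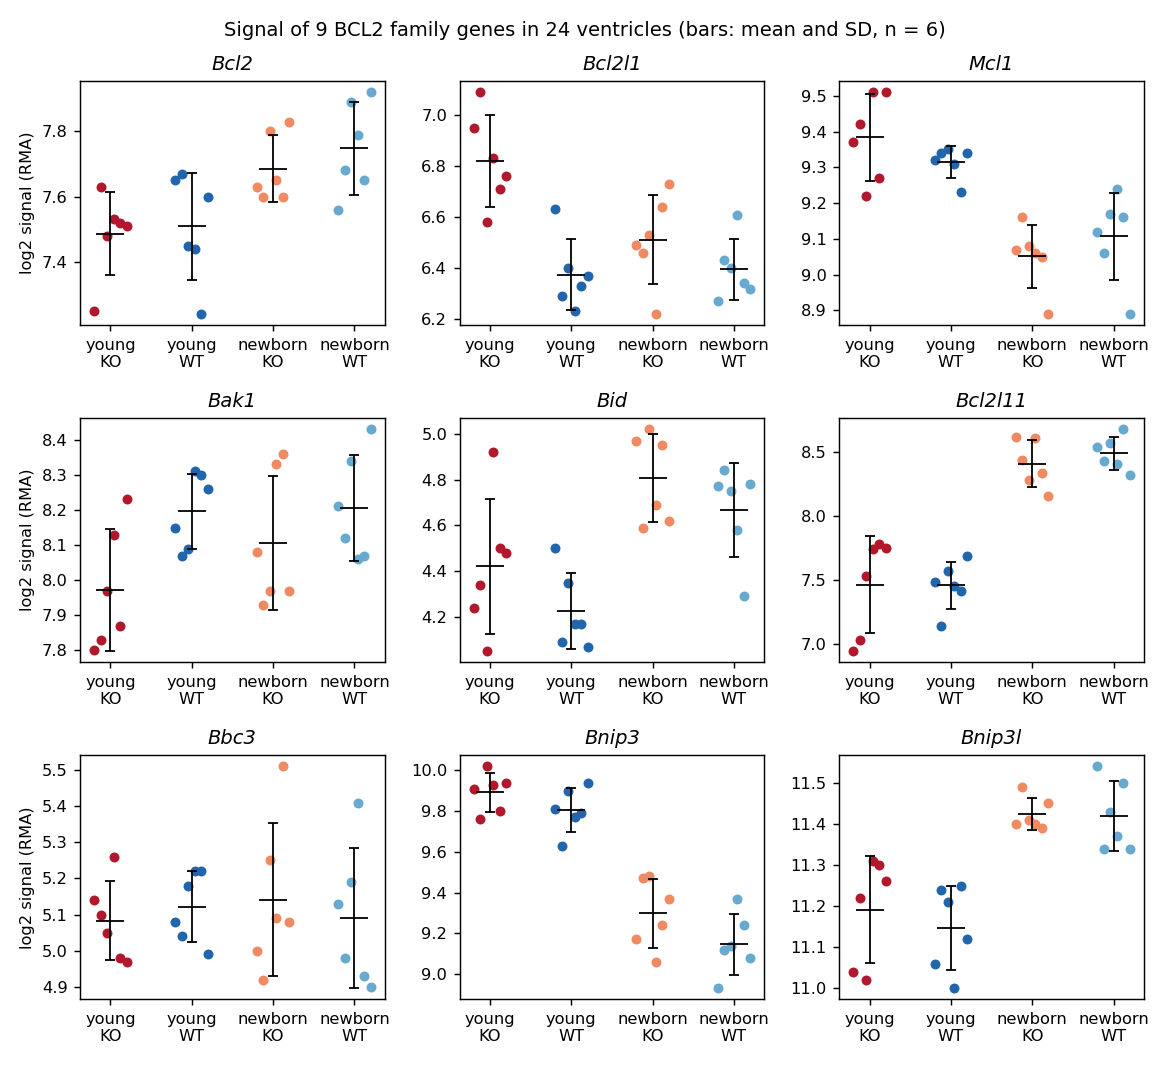
Log2 signal of the 9 measured members on each array, by group, with young KO, young WT, newborn KO and newborn WT from left to right; points are arrays and bars are the mean with its SD (n = 6). Bcl2l11 was low and Bnip3 high in all 12 young arrays, and Bcl2l1 had its highest mean in young KO.

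Between birth and 1 month the family did not move as a block. In KO ventricles 7 of the 9 members were called, 3 higher and 4 lower in young mice, which is 77.8% of them against 59% of all genes tested. By direction, 34% of all genes were called higher and 25% lower. In WT ventricles 6 of 9 were called, 2 higher and 4 lower, which is 66.7% against 47% of all genes, with 19.2% of genes called higher and 27.9% lower. Bcl2l11 fell most and Bnip3 rose most in both genotypes, and Mcl1 rose while Bcl2, Bid and Bnip3l fell on the deposited scale, calls that the last 3 lost after median centring. The median change of the 9 members was -0.13 in KO and -0.02 in WT, against 0.10 and 0.00 over all genes. Markers of cell types changed with age on the same arrays. All 4 measured markers of cycling cells were called lower in young mice in both genotypes (median change -2.07 in KO and -2.55 in WT). Of 6 fibroblast markers 3 were called lower and 1 higher in KO and 5 lower in WT, and of 9 macrophage and leukocyte markers 5 were called higher and 2 lower in KO and 6 higher and 2 lower in WT. Of 6 endothelial markers 2 were called lower in KO, and 5 lower and 1 higher in WT. Of 7 atrial markers 1 was called lower in KO and 5 in WT. Of 4 adipocyte markers 3 were called higher in KO and none in WT. Of 4 smooth muscle markers 2 were called higher in KO and 1 lower in WT. Of 3 erythroid markers 1 was called lower in KO and none in WT. Of 8 ventricular cardiomyocyte markers 4 were called higher in KO and 5 in WT. The part of these cell types in the changes of the members was not tested.

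Bcl2l11, which encodes the BH3-only protein BIM, had the lower levels in young mice by about a factor of 2. Its lowest, median and highest signals were 6.94, 7.63 and 7.78 in young KO and 7.14, 7.47 and 7.69 in young WT. In newborn KO they were 8.16, 8.39 and 8.62, and in newborn WT 8.32, 8.49 and 8.68. Every young array was below every newborn array. The fold change was 0.519 in KO (log2 -0.95, SE 0.13, adjusted p = 1.62e-06) and 0.488 in WT (log2 -1.04, SE 0.13, adjusted p = 3.43e-07). Within young KO the arrays spread more than in the other groups (SD 0.38 against 0.19 in young WT): replicates 1 and 2 were at 6.94 and 7.03, and the other 4 between 7.53 and 7.78.

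Bnip3, the mitophagy receptor, moved in the opposite direction. Its lowest, median and highest signals were 9.76, 9.92 and 10.02 in young KO and 9.63, 9.80 and 9.94 in young WT. In newborn KO they were 9.06, 9.30 and 9.48, and in newborn WT 8.93, 9.13 and 9.37. Again the ages did not overlap in either genotype. Bnip3 was 1.51-fold higher in young KO than in newborn KO (log2 0.59, SE 0.08, adjusted p = 9.32e-07) and 1.58-fold higher in young WT than in newborn WT (log2 0.66, SE 0.08, adjusted p = 1.49e-07).

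Bnip3l, whose product NIX shares the receptor role, changed the other way and by less. Young KO arrays had signals of 11.02, 11.24 and 11.31 (lowest, median and highest) and young WT arrays 11, 11.16 and 11.25. Newborn KO arrays were at 11.39, 11.41 and 11.49 and newborn WT arrays at 11.34, 11.40 and 11.54. The ages were separate in both genotypes, with a change of -0.23 in KO (SE 0.06, adjusted p = 0.00291) and -0.27 in WT (SE 0.06, adjusted p = 0.00064). In all, 4 of 9 members had ages that did not overlap in KO, a pattern found in 31% of all genes, and 3 of 9 in WT, where it was found in 29.7%. The signal of Bnip3 minus that of Bnip3l within an array, in which array-wide shifts cancel, lay between -1.50 and -1.01 in young KO and between -1.61 and -1.18 in young WT. It was between -2.34 and -1.93 in newborn KO and between -2.61 and -2.0 in newborn WT. No young array reached the newborn range of this difference, which follows from the ranges of each gene and is not a further test.

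Both receptors are read by 2 probe sets, and the brighter one of each stands in the platform order among probe sets of another chromosome. The brighter Bnip3 set lies between sets of chromosome 14 genes, whereas Bnip3 is annotated on chromosome 7 (chr7:138890836-138909506, GRCm38.p6). The brighter Bnip3l set lies among sets of chromosome 12 genes, whereas Bnip3l is annotated on chromosome 14 (chr14:66985238-67008877) and a pseudogene, Bnip3l-ps, on chromosome 12 (chr12:18216547-18217776). Which copy each set reads was not tested. The other Bnip3 set, placed among chromosome 7 genes, changed by 0.59 in KO and 0.71 in WT with age. The other Bnip3l set, placed on chromosome 14, changed by -0.25 in KO and -0.23 in WT. The age calls of both genes were thus also made on the other set, and the sets of a gene correlated over the 24 arrays at r = 0.972 for Bnip3 and 0.973 for Bnip3l.

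Among the guardians, Mcl1 was higher in young mice. Its signals in young KO were 9.22, 9.39 and 9.51 (lowest, median and highest) and in young WT 9.23, 9.33 and 9.35. Those in newborn KO were 8.89, 9.06 and 9.16, and those in newborn WT 8.89, 9.14 and 9.24. The KO groups did not overlap, and the WT groups met only at their edge. Mcl1 was 1.26-fold higher with age in KO (log2 0.33, SE 0.06, adjusted p = 0.000114) and 1.16-fold higher in WT (log2 0.21, SE 0.06, adjusted p = 0.00823).

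Bcl2 fell slightly with age. Young KO signals were 7.25, 7.51 and 7.63 (lowest, median and highest) and young WT signals 7.24, 7.52 and 7.67. Newborn KO signals were 7.60, 7.64 and 7.83 and newborn WT signals 7.56, 7.74 and 7.92. The ages overlapped in both genotypes. The change was -0.20 in KO (SE 0.08, adjusted p = 0.0383) and -0.24 in WT (SE 0.08, adjusted p = 0.0163). It was the least secure call among the members: the KO call was lost without young KO replicate 1 or 3 or without newborn KO replicate 3 or 6 (adjusted p between 0.0568 and 0.109), and the WT call without young WT replicate 5 (adjusted p = 0.0559). New quantile normalisation gave -0.11 in both genotypes and removed both calls (adjusted p = 0.268 in KO and 0.28 in WT), and with the mean of the probe sets the WT change was -0.062 (adjusted p = 0.415). A second, dim Bcl2 probe set with signals between 3.24 and 3.91 changed by 0.27 in KO and 0.12 in WT, the opposite sign, with adjusted p-values of 0.0217 in KO and 0.369 in WT.

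Bcl2l1, which encodes BCL-XL, passed the age test in KO and not in WT, a difference between genotypes that did not itself pass (adjusted p = 0.31). Its signals in young KO were 6.58, 6.80 and 7.09 (lowest, median and highest), those in young WT 6.23, 6.35 and 6.63, those in newborn KO 6.22, 6.51 and 6.73, and those in newborn WT 6.27, 6.37 and 6.61. Young KO had the highest mean, and the other 3 groups had means between 6.38 and 6.51. With age it was 1.24-fold higher in KO (log2 0.31, SE 0.09, adjusted p = 0.00574), while in WT the change was -0.02 (SE 0.09, adjusted p = 0.873).

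Bid, the BH3-only protein cleaved in death receptor signaling, fell with age from a low signal. Young KO arrays were at 4.05, 4.41 and 4.92 (lowest, median and highest) and young WT arrays at 4.07, 4.17 and 4.5. Newborn KO arrays were at 4.59, 4.82 and 5.02 and newborn WT arrays at 4.29, 4.76 and 4.84. The ages overlapped in both genotypes, with a change of -0.38 in KO (SE 0.12, adjusted p = 0.01) and -0.44 in WT (SE 0.12, adjusted p = 0.00373).

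On the deposited scale Bak1 and Bbc3 did not pass the test with age in either genotype or between genotypes at either age. Bak1, the pore former, averaged 7.97 ± 0.17 in young KO, 8.2 ± 0.11 in young WT, 8.10 ± 0.19 in newborn KO and 8.2 ± 0.15 in newborn WT (SD, n = 6 each). Its age change was -0.13 in KO (adjusted p = 0.205) and -0.01 in WT (adjusted p = 0.954). Another, dimmer Bak1 probe set changed by -0.23 in KO (adjusted p = 0.1475) and 0.17 in WT (adjusted p = 0.353). The Bak1 sets correlated over the 24 arrays at only r = 0.32. Bbc3, which encodes PUMA, averaged 5.08 ± 0.11 in young KO, 5.12 ± 0.10 in young WT, 5.14 ± 0.21 in newborn KO and 5.09 ± 0.19 in newborn WT. The signal of Bak1 minus that of Mcl1 within an array had medians of -1.39 in young KO, -1.13 in young WT, -0.96 in newborn KO and -0.92 in newborn WT. This difference was thus most negative on the young KO arrays, between -1.59 and -1.25, but overlapped with young WT, between -1.27 and -0.93. It follows from the signals of each gene and is not a further test. Bak1 minus Bcl2 had medians of 0.52 in young KO, 0.65 in young WT, 0.39 in newborn KO and 0.45 in newborn WT.

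**Figure D2:**
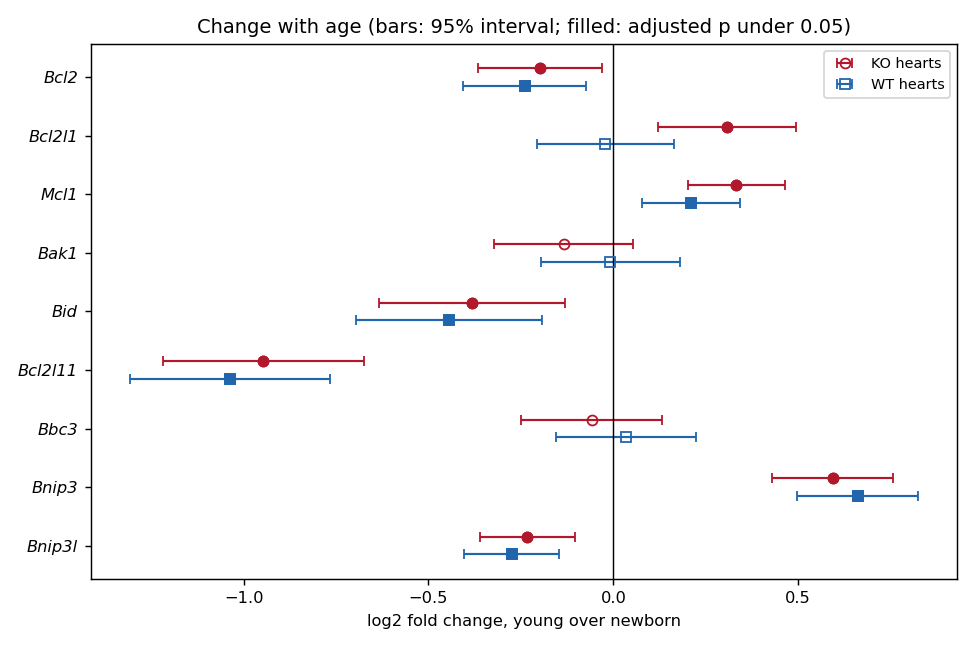
Log2 fold change with age of each measured member, young over newborn, in KO and in WT with 95% confidence intervals (n = 6 mice per group). Bcl2l11 lay near -1 and Bnip3 near 0.6 in both genotypes, and the estimates for Bcl2l1 lay apart, at 0.31 in KO and -0.02 in WT.

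Part of the age calls rested on how the arrays were put on a common scale. Centring each array on its median added 0.17 to the age change of every gene in KO and 0.26 in WT, so the median gene then stood at 0.27 in KO and 0.26 in WT. On that scale the WT change of Bcl2 was 0.02, that of Bnip3l -0.02 and that of Bid -0.19, none of them called. Instead Bbc3, Bak1 and Bcl2l1 were called in WT at 0.29, 0.25 and 0.24, with adjusted p-values of 0.0159, 0.0279 and 0.0357. Set against the median gene, these genes stood where they did on the deposited scale. Bcl2l11 and Bnip3 were called in the same direction on both scales and in both genotypes.

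In newborn mice no difference between KO and WT was called in the family. None of the 9 members passed the adjusted threshold, as was so for all 18819 genes (0% called by limma). The count over all genes was 73 without newborn WT replicate 4, 49 without newborn KO replicate 4, 482 without both and 31 with array weights, and none of the 9 members was among them. At an unadjusted p below 0.05 there was also no member, against 9.07% of all genes. No member had groups that did not overlap, a pattern found in 0.489% of genes. On the brightest probe sets the largest estimate was that of Bnip3, 0.15 higher in newborn KO (SE 0.08, 95% interval -0.01 to 0.32, adjusted p = 0.579). The other 8 members lay between -0.10 for Bak1 and 0.14 for Bid. The other Bnip3 probe set gave 0.23 with an unadjusted p of 0.0099 and an adjusted p of 0.575. The other Bak1 set gave 0.25 (unadjusted p = 0.0693, adjusted p = 0.692), opposite in sign to the brighter Bak1 set. The intervals of the 9 members reached at most 0.39 upward, for Bid, and 0.36 downward, for Bcl2l11.

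In young mice 1 of the 9 members was called between genotypes, which is 11.1% against 1.02% of all genes and 0.67% called higher. Bcl2l1 was 1.36-fold higher in young KO than in young WT (log2 0.44, SE 0.09, 95% interval 0.26 to 0.63, adjusted p = 0.0148). The 6 young KO arrays were at 6.95, 7.09, 6.58, 6.83, 6.71 and 6.76 and the 6 young WT arrays at 6.63, 6.29, 6.40, 6.23, 6.33 and 6.37. The groups overlapped only through young KO replicate 3 and young WT replicate 1. No member had groups that did not overlap, against 0.824% of genes. The same young KO arrays enter the rise of Bcl2l1 with age in KO, so the pair of calls are not separate evidence.

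The call of Bcl2l1 was kept in each of the 24 fits that left out 1 array, with changes between 0.39 and 0.50 and adjusted p between 0.00373 and 0.0445. It was lost when arrays were centred on their median (0.38, adjusted p = 0.0555) and when only the 12 young arrays were fitted (0.44, adjusted p = 0.0967). The atrial markers differed widely among these ventricles, with none of the 7 called between genotypes. The mean of the 7 atrial markers was 9.10 ± 1.56 in young KO and 6.92 ± 1.70 in young WT. It was 10.64 on young KO replicate 2, where Bcl2l1 was highest of its group at 7.09, 10.49 on replicate 5, where Bcl2l1 was at 6.71, and 6.39 on replicate 3, where Bcl2l1 was lowest at 6.58. Smooth muscle markers averaged 9.01 ± 1.19 in young KO and 7.48 ± 0.87 in young WT, and fibroblast markers 8.83 ± 0.61 in young KO and 8.24 ± 0.61 in young WT. With the atrial mean as a covariate, a fit chosen after the values were seen, the change was 0.39 and the adjusted p 0.383. The young WT arrays with the highest atrial means, replicates 2 and 5 at 9.62 and 8.45, had Bcl2l1 signals of 6.29 and 6.33.

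**Figure D3:**
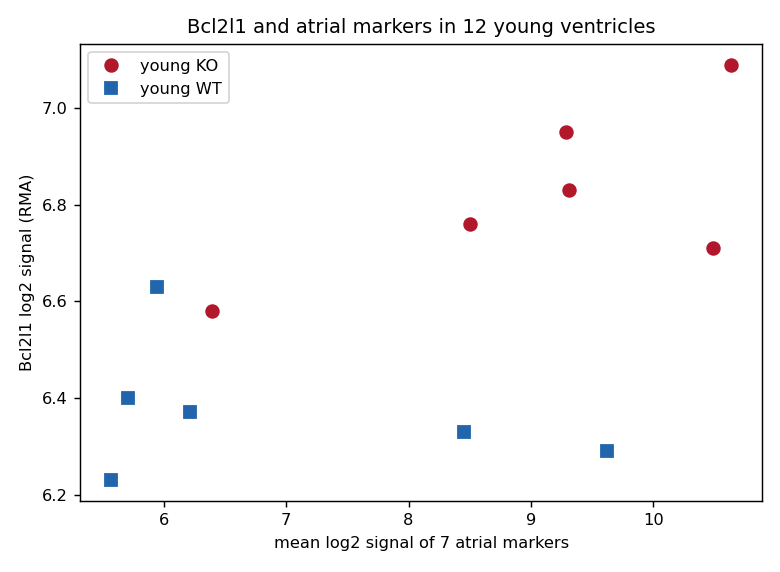
Bcl2l1 log2 signal against the mean log2 signal of 7 atrial markers on the 12 young arrays, with young KO and young WT as separate symbols. Young KO arrays reached higher on both axes, whereas the young WT arrays with atrial means of 9.62 and 8.45 had Bcl2l1 signals of 6.29 and 6.33.

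No other member passed the adjusted threshold between the young genotypes. Bak1 was the only other member below an unadjusted p of 0.05, with 7.97 ± 0.17 in young KO and 8.2 ± 0.11 in young WT (log2 -0.23, SE 0.09, adjusted p = 0.231). These 2 of 9 members stood against 15% of all genes at that level. The other Bak1 probe set gave -0.15 and was not below that level (unadjusted p = 0.267). Bid had an estimate of 0.20 (adjusted p = 0.468), and Bnip3, Mcl1, Bnip3l, Bcl2l11, Bcl2 and Bbc3 lay between -0.04 and 0.09. The KO effect was also compared between ages, as an interaction in the same fit. None of the 9 members was called, against 0.0106% of all genes. Bcl2l1 came nearest, with a KO effect larger by 0.33 in young mice (SE 0.13, adjusted p = 0.31), the only member below an unadjusted 0.05, where 12.9% of all genes lay. A KO effect on Bcl2l1 particular to the young age was therefore not shown. The other Bak1 probe set had an interaction of -0.40 (unadjusted p = 0.0421, adjusted p = 0.416).

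**Figure D4:**
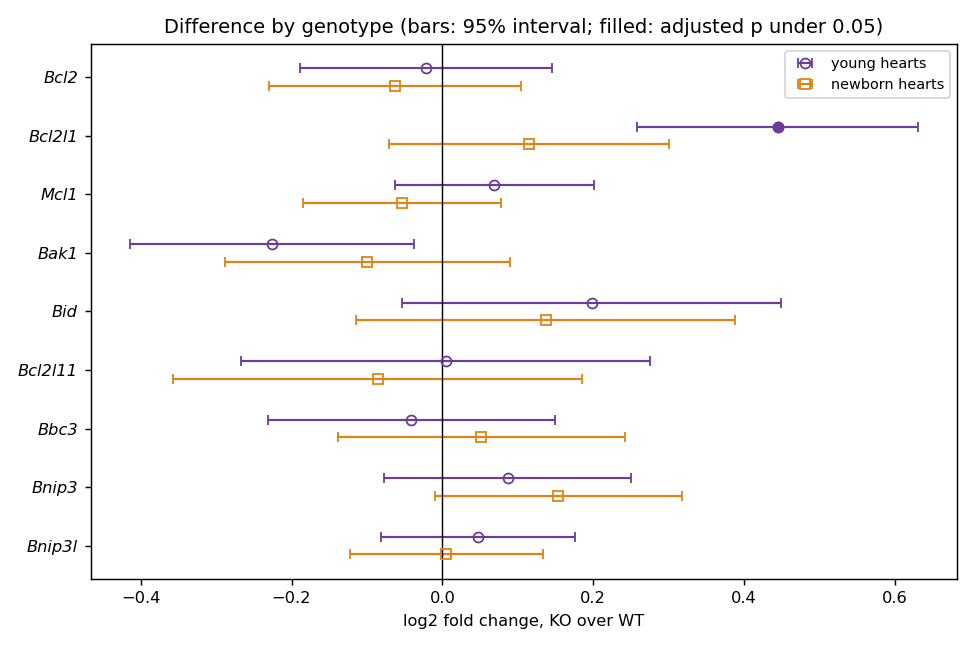
Log2 fold change of each measured member, KO over WT, in young and in newborn ventricles with 95% confidence intervals (n = 6 mice per group). Only Bcl2l1 in young mice, at 0.44, was called, and the newborn estimates lay between -0.10 and 0.15.

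Other genes of the family were read from a list of 15, of which 11 were measured. In KO 3 were higher and 3 lower with age (54.5% called, against 59% of all genes), and in WT 2 were higher and 3 lower (45.5%, against 47%). Bmf, a BH3-only gene, had the largest change. Its signals were 5.46, 5.94 and 6.14 (lowest, median and highest) in young KO, 5.49, 5.96 and 6.25 in young WT, 7.19, 7.40 and 7.80 in newborn KO, and 6.87, 7.39 and 7.78 in newborn WT. Bmf was thus lower on every young array than on every newborn array, with a change of -1.58 in KO (SE 0.16, adjusted p = 7.71e-09) and -1.45 in WT (SE 0.16, adjusted p = 2.54e-08). Bik, a further BH3-only gene, had a change of -0.42 in KO and -0.84 in WT, both called. The KO call of Bik was lost after median centring and after new quantile normalisation (adjusted p = 0.0751 and 0.0975). Bok, a relative of the pore formers, had a change of -0.23 in KO (adjusted p = 0.167) and -0.53 in WT, called there (adjusted p = 0.00342). Bcl2l2, the guardian BCL-W, rose by 0.34 in KO and 0.41 in WT, and Bcl2l13, an outer membrane protein also known as a mitophagy receptor, by 0.26 in KO and 0.17 in WT. The WT call of Bcl2l13 had an adjusted p of 0.0499 and was lost when single arrays were left out. Bcl2l10 was called higher in KO (0.42, adjusted p = 0.00643, against -0.05 in WT, adjusted p = 0.80), and Bcl2l12 was called lower in KO (-0.37, adjusted p = 0.00676, against -0.18 in WT, adjusted p = 0.188). New quantile normalisation removed both of these calls, and median centring that of Bcl2l12. Bcl2l10 was dim, with signals of 2.26 to 3.06 in newborn KO and 2.68 to 3.46 in young KO, below the median of every array. Whether these changes differed between genotypes was covered by the interaction, which called none of the 11.

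Genes for mitochondrial proteins tied to apoptosis, together with Apaf1 and Casp9, were read from a list of 15, with 12 measured. In each genotype 7 were higher and 3 lower with age (83.3% called, against 59% of all genes in KO and 47% in WT). Apaf1, the scaffold of the apoptosome, fell by 0.73 in KO and 0.67 in WT, and Casp9, the caspase it activates, fell by 0.60 in KO and 0.70 in WT. The signals of Apaf1 lay between 5.75 and 6.28 in young KO and between 5.98 and 6.47 in young WT, against 6.67 to 6.95 in newborn KO and 6.76 to 6.95 in newborn WT. Slc25a5, an adenine nucleotide translocase of the inner membrane, fell by 0.40 in both, and its WT call was lost after median centring (-0.14, adjusted p = 0.112). Cycs (cytochrome c) rose by 0.44 in KO and 0.39 in WT, Ppif (cyclophilin D) by 0.67 in KO and 0.48 in WT, and Opa1, which fuses inner membranes and holds cristae, by 0.57 in KO and 0.54 in WT. The genes that rose thus included structural and respiratory proteins of mitochondria, and the pair that forms the apoptosome with cytochrome c fell.

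Mitophagy genes other than Bnip3, Bnip3l and Bcl2l13 were read from a list of 22, with 18 measured. Of these 9 were higher and 4 lower with age in KO (72.2% called, against 59% of all genes). In WT 7 were higher and 5 lower (66.7%, against 47%). Map1lc3a, an LC3 protein that receptors such as BNIP3 bind on the growing autophagosome, rose by 0.85 in KO and 0.91 in WT. Its signals were 10.97 to 11.10 in young KO and 10.94 to 11.15 in young WT, against 10.05 to 10.38 in newborn KO and 10.04 to 10.24 in newborn WT. Pink1, the kinase that marks damaged mitochondria, rose by 0.71 in KO and 0.68 in WT. Ulk1, which starts autophagy, rose by 0.24 in KO and 0.35 in WT, and Gabarapl1, a relative of LC3, by 0.39 in KO and 0.32 in WT. Usp30, a deubiquitinase known to oppose mitophagy, fell by 0.35 in KO and 0.43 in WT. Fkbp8, an outer membrane anchor of BCL2, fell by 0.23 in KO and 0.32 in WT, and both calls were lost after median centring (-0.06 in each). Ambra1, a further autophagy regulator, fell by 0.33 in KO and 0.23 in WT. Rheb had -0.05 in KO (adjusted p = 0.585) and -0.26 in WT, called there, and its WT value was 0.00 after median centring.

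Regulators and binding partners of BCL2 proteins were read from a list of 26, with 22 measured. In KO 11 were higher and 5 lower with age (72.7% called, against 59% of all genes). In WT 8 were higher and 3 lower (50%, near the 47% of all genes). The light chains that tether BIM and BMF to motor complexes moved in opposite directions. Dynll1 fell by 0.77 in KO and 1.08 in WT, and Dynll2 rose by 0.98 in KO and 0.89 in WT. The hypoxia factors also divided: Epas1 (HIF-2 alpha) rose by 1.08 in KO and 1.32 in WT, and Hif1a fell by 0.45 in KO and 0.48 in WT. Bag3, a co-chaperone that binds BCL2, rose by 0.85 in KO and 1.07 in WT, and Bclaf1 fell by 0.63 in KO and 0.72 in WT. Over the 4 lists the median age change was 0.07, 0.22, 0.10 and 0.18 in KO and 0.05, 0.21, 0.08 and 0.10 in WT, in the order given, against 0.10 and 0.00 over all genes.

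**Figure D5:**
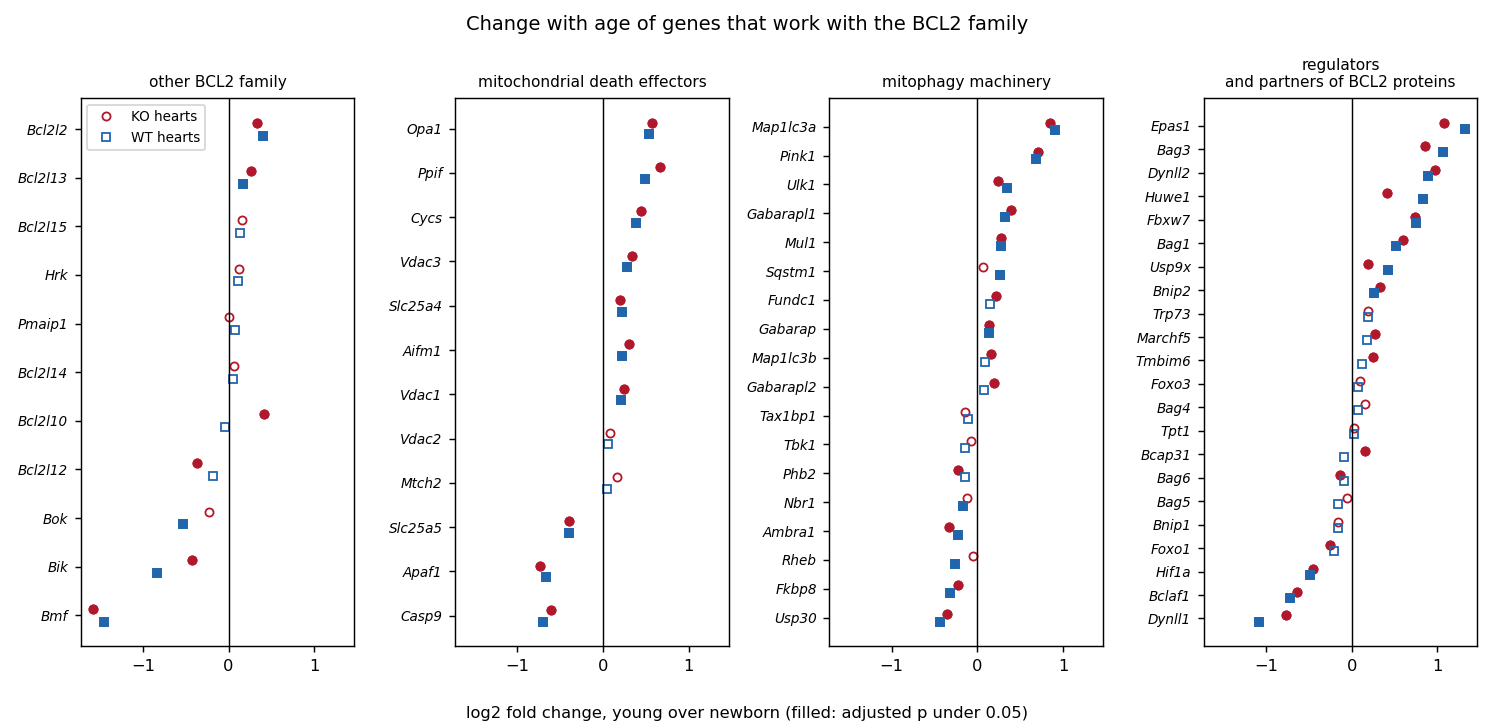
Log2 fold change with age, young over newborn, of all measured genes of 4 lists (other BCL2 family, mitochondrial death effectors, mitophagy, and regulators) in KO and in WT, filled where called. Bmf and Dynll1 lay lowest in WT, at -1.45 and -1.08, and Epas1 and Bag3 highest, at 1.32 and 1.07.

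Between genotypes these lists held 2 calls among 63 measured genes, both in young mice, which is 3.17% against 1.02% of all genes. In newborn mice none of the genes of the 4 lists was called. In young mice Huwe1 and Usp9x were lower in KO, and no gene of the other 3 lists passed. Huwe1 encodes a ubiquitin ligase known to mark MCL1 for degradation, and Usp9x a deubiquitinase known to stabilise it. Huwe1 signals were 8.98, 9.13 and 9.29 (lowest, median and highest) in young KO and 9.36, 9.54 and 9.70 in young WT, without overlap. In newborn KO they were 8.63, 8.71 and 8.82 and in newborn WT 8.61, 8.70 and 8.83. Huwe1 was at a fold of 0.756 in young KO relative to young WT (log2 -0.40, SE 0.07, adjusted p = 0.00286), and kept this call in every fit without 1 array. Usp9x signals were 8.82 to 9.02 in young KO and 9.06 to 9.24 in young WT, also without overlap (log2 -0.21, SE 0.05, adjusted p = 0.0365). The call of Usp9x was lost without young WT replicate 1, 3, 4 or 6 and without young KO replicate 2 or 4, with adjusted p between 0.0622 and 0.0949. It was also lost under median centring, array weights, the replicate block and a test of all probe sets (adjusted p between 0.0514 and 0.0673). When only the 12 young arrays were fitted, neither was called (adjusted p = 0.0754 for Huwe1 and 0.262 for Usp9x), nor with the atrial mean as a covariate (adjusted p = 0.371 for Huwe1 and 0.561 for Usp9x). Both genes were called higher with age, Huwe1 by 0.41 in KO and 0.83 in WT and Usp9x by 0.19 in KO and 0.43 in WT. For neither gene did the KO effect differ between ages after correction, with adjusted p = 0.0985 for Huwe1 and 0.222 for Usp9x.

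The genes whose signals ran most like each member over the 24 arrays were taken by Pearson's r, a measure that for members called with age mostly follows the 2 ages. For Bnip3 they were Lrrc2 (0.969), Aldh6a1 (0.959) and Nceh1 (0.959), and for Bcl2l11 Bcl11a (0.954), Plag1 (0.950) and Rnf122 (0.950). Bnip3l ran with Pdcd4 (0.950), Ctdsp2 (0.940) and Smo (0.935), and Mcl1 with Dusp7 (0.901), Ddo (0.900) and Col4a3 (0.894). After the mean of each group was taken off, r was 0.810 for Bnip3 with Lrrc2, 0.744 for Bcl2l11 with Bcl11a and 0.858 for Bnip3l with Pdcd4. Bcl2l1 ran with Jdp2 (0.831), Cdkn1a (0.826) and Id1 (0.825), which stood at 0.570, 0.604 and 0.661 within groups. Cdkn1a encodes the cell cycle inhibitor p21 and Jdp2 a repressor of AP-1. Bid ran with Srsf6 (0.865), Tnfrsf10b (0.857) and Eefsec (0.846), Bcl2 with Smad1 (0.828), Iqce (0.799) and Vmac (0.784), and Bak1 with Cep76 (0.799), Trub2 (0.786) and Rab20 (0.780). The weakest were those of Bbc3, Gm5771 (0.687), Ostn (0.683) and Vmn1r23 (0.673), with 0.715, 0.735 and 0.749 within groups. These values describe 24 arrays that share 4 group means and were chosen as the highest of 18819 genes.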

How the data were processed

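Ventricle RNA of 24 mice, 6 per group, was measured on an expression array with 35017 probe sets. The deposited values are log2 signals, which the authors made by RMA (oligo 1.22, limma 3.14 and R 2.15, per the submitters' processing notes), with values between 1.07 and 13.51. The background, quantile and summary steps of RMA make arrays alike in distribution, so a shift shared by most genes is partly removed. Scanner files and the supplementary description of the array statistics were not used here. Arrays of a group correlated at 0.985 to 0.993 on average, and no 2 arrays held identical values. The precision is limited by the number of arrays.

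Of the probe sets, 21118 had 1 gene symbol, 1735 several and 12164 none in the platform annotation, and the brightest set of each single-symbol gene gave 18819 genes. No filter on low signals was applied. limma 3.58.1 (lmFit and eBayes, R 4.3.3) was fitted with 1 mean per group over all 24 arrays (20 residual degrees of freedom), and p-values were adjusted by Benjamini-Hochberg over all genes. The code was tested on simulated data. Groups came from the labels, with the heart of a separate mouse on each array per the study's methods.

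Named were all members, other family genes called in any comparison, the called genes of each further list with the 3 largest rises and falls, and the 3 genes most correlated with each member. The members and lists were chosen with earlier results of these data known. Numbers shared between groups were not treated as pairs, because the labels do not say whether they pair the arrays. Alternatives were a filter on dim genes, median centring, new quantile normalisation, other variance models, array weights, the replicate block, other probe sets, fewer arrays, stricter thresholds and leaving out each array. Promoter windows and gene positions were taken from RefSeq (GRCm38.p6), and motifs were searched on both strands.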

Additional observations from a re-analysis of the deposited data

Results flagged for a closer look

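Of 36 groups of 6 arrays (9 members in 4 groups), 1 held an array far from the others. Mcl1 stood at 9.23 on young WT replicate 5, and the other 5 young WT arrays lay between 9.31 and 9.35. The gap was 0.664 of the range of the group, above Dixon's critical value for a group of this size. Chance sets apart about 1 in 20 groups. Mcl1 remained called higher with age in WT and in KO in every fit that left out 1 array.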

How the results depend on the processing

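Under 38 settings, 1628 of 1665 alternative values of the members kept their call, being called in the same direction or not called as before. In 49 of these the sign of a value that was called in neither fit turned. The count of members called with age in KO, 7 as reported, was 4 after median centring, 2 when a change of at least 1.5-fold was required and 6 to 7 without single arrays. In WT, 6 as reported, it was 6 after median centring, though in part of other members, 2 at 1.5-fold and 5 to 6 without single arrays. Between the young genotypes, 1 as reported, it was 0 after median centring, with only the 12 young arrays, at an adjusted p below 0.01, at 1.5-fold and with the atrial mean as a covariate. Over all genes that comparison called 192 as reported, but 19 with the 12 arrays, 8 with the covariate, 784 without young WT replicate 2 and 806 without young KO replicate 3. Without any other single array it was between 108 and 206. The newborn and interaction counts were 0 in every setting. The sign of a value called as reported or in the alternative turned in 4 cases: under median centring in WT, Bak1 (0.25), Bcl2 (0.017) and Bcl2l1 (0.24), and with the mean of its probe sets Bcl2 in KO (0.034). Rheb in WT turned to 6e-04 under median centring. Bbc3 in WT was called at 0.29 after median centring and after new quantile normalisation. Whether replicate numbers pair the arrays is not known from the labels. Deviations of same-numbered arrays from their group means correlated at -0.438 to 0.645, which does not decide it. With the replicate block the counts were 7 (age, KO), 6 (age, WT), 1 (young genotypes), 0 (newborn genotypes) and 0 (interaction), as without it. Bid and Bbc3 were the dimmest members, at the 40.8th and 45.7th percentile of mean signal.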
